A study of Nannochloropsis gaditana with 4 samples.

Results

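Real-time PCR quantities of 44 transcripts were compared between 1 sample of *Nannochloropsis gaditana* grown under flashing light and 1 grown under continuous light. *N. gaditana* (strain CCAP 849/5) is a single-celled marine alga that builds up storage oil. The flashing light sample is the one the deposited tables number 2, and the tables' fold changes divide it by sample 1, the control, which is the only sample the labels describe as such (CL). The series holds 4 samples, of which 3 (numbers 2, 3 and 4) came from light flashing 5, 50 or 500 times a second (Hz), lit for a fraction of 0.05 of each cycle (the duty cycle), but nothing in the sources used here ties sample 2 to a frequency. In every condition the cells were cultured in batch for 13 days in CO2-enriched air at a mean light of 300 µmol s-1 m-2, delivered in the flashing cultures as flashes of 6000 µmol s-1 m-2. The comparison therefore sets delivery of the light in flashes against steady delivery of the same mean dose. The series' design text says that RNA was pooled, so each condition is 1 sample with 3 numbered repeats. What a repeat was, a culture or a PCR well, is not given, and no test between conditions was made.

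All 44 genes of the table were used, 36 targets and 8 housekeeping genes. The targets follow the route of light and carbon through the cell. Antenna proteins, which bind chlorophyll and carotenoids, collect light. The xanthophyll cycle turns the carotenoid violaxanthin into zeaxanthin under strong light, which helps the antenna shed excess energy as heat, and turns it back in dim light. Fixed carbon flows in part into fatty acids, which are lengthened on acyl carrier protein (ACP) by a repeating set of enzymes in the plastid, then desaturated, activated to CoA esters and attached stepwise to glycerol-3-phosphate until triacylglycerol, the storage oil, is formed. Algae of this genus are known for storing more of it when nitrogen runs short, and nitrate reductase catalyses the first step of nitrate use.

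Each quantity below is the authors' normalized ratio, which has its own scale for each gene. The table before normalization sets the highest of a gene's 12 values to 1, and the authors then divided by a factor of the housekeeping genes CYP (cyclophilin) and PAP1 (a phosphatidic acid phosphatase). A value of 1.12 thus marks the gene's maximum where it fell in repeat 1 of sample 2, and levels of different genes cannot be compared. The amount of template behind each value is unknown. A change was called where the mean log2 values differed by at least 2-fold and by more than 2 propagated SDs. The propagated SD adds the SDs over 3 repeats of both samples in quadrature.

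The repeats lay closer together in sample 2 than in continuous light. The SD of the log2 quantities over repeats had a median of 0.10 over the targets in sample 2 and of 0.19 in continuous light, and it was larger in continuous light for 32 of the 36. Repeat 3 of continuous light lay more than 0.5 on the log2 scale above both other control repeats for 9 of the 44 genes: TEF1, AT1, BT, O6FADes1, NR, LCS1, KAS, MCT and KAR1. The values of these 9 genes are given with and without it.

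**Figure D1:**
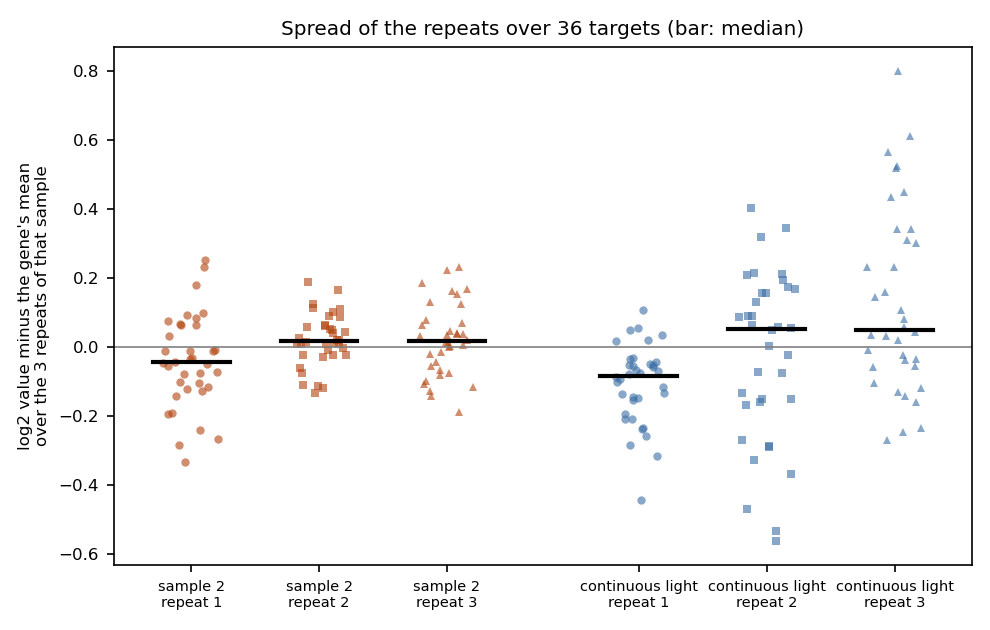
Log2 quantity of each of the 36 targets in a repeat minus that gene's mean over the 3 repeats of the same sample, for sample 2 (left) and continuous light (right). Points are genes and bars are medians, and the genes scatter more widely in repeats 2 and 3 of continuous light than in any repeat of sample 2.

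Of the 36 targets, 5 changed in sample 2, which is 13.9%. VCP1, VDE2, POR1 and HAD were higher (11.1%) and NR was lower (2.78%). These genes belong to the antenna, the xanthophyll cycle, chlorophyll synthesis, fatty acid synthesis and nitrate use, and no list had more than 1 changed member. A further 9 targets differed by more than 2 propagated SDs but by less than 2-fold, 6 of them higher in sample 2 (GPD1, PAP2, ALAD, DGAT2, GPAT and LPAT1) and 3 lower (DGAT3, AGPase1 and PAP3). By the plain criterion that the 3 repeats of one sample all lay outside the range of the other, 15 targets (41.7%) were higher in sample 2, 6 (16.7%) were lower and 15 overlapped. The median log2 change of all targets was 0.20 with the authors' factor, 0.0138 without any reference and −0.40 with UFP, a housekeeping gene, as the reference. None of the 8 housekeeping genes met the rule, but CYP and PAP1 set the factor. BT, at −1.61 ± 0.81, missed the rule at 1.99 propagated SDs.

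**Figure D2:**
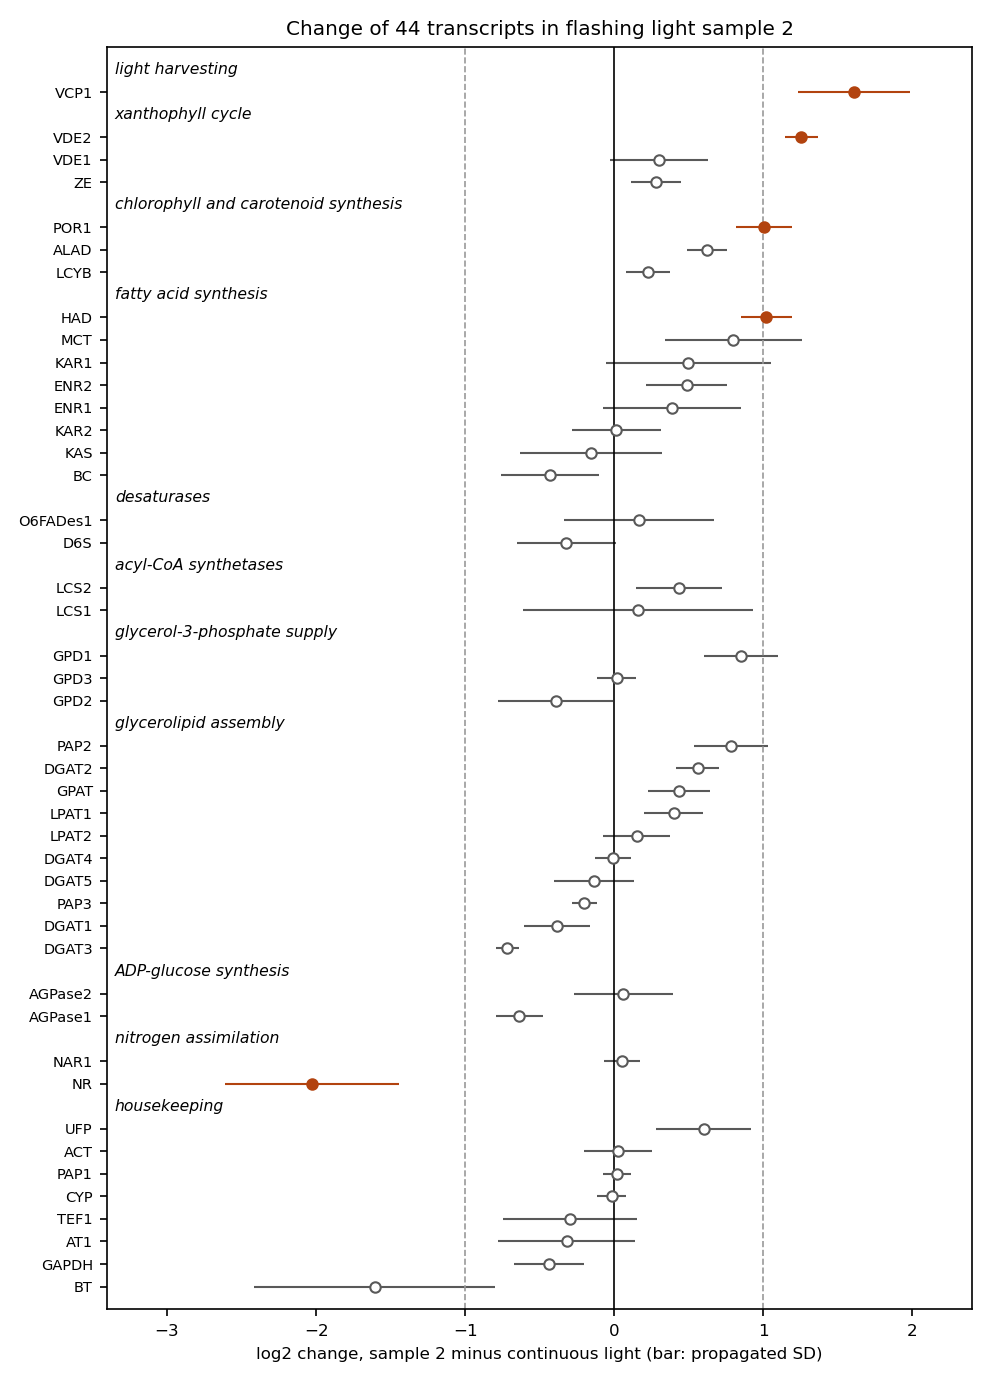
Log2 change of each of the 44 genes, sample 2 minus continuous light, grouped by function and sorted within each group. Bars are propagated SDs over 3 repeats per sample, dashed lines mark 2-fold, and filled points pass the rule: VCP1, VDE2, POR1 and HAD to the right and NR to the left.

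VCP1 encodes a violaxanthin-chlorophyll protein, the main kind of antenna protein in this alga, and had the largest increase. Its normalized quantity was 1.02, 1.10 and 1.21 in the 3 repeats of sample 2, against 0.298, 0.480 and 0.335 in continuous light. Even the lowest value of sample 2 was more than 2-fold the highest value of continuous light. The means were 1.11 ± 0.0970 in sample 2 and 0.371 ± 0.0959 in continuous light (SD, n = 3 each), a fold of 3.05 and a log2 change of 1.61 ± 0.38. Before normalization, the VCP1 product of sample 2 appeared 0.13, 0 and 0.02 cycles after the earliest of the gene's 12 reactions, and that of continuous light 1.80, 0.99 and 1.49 cycles after it. The separation was thus present in the uncorrected cycles, at a mean of −1.38 cycles for sample 2 minus continuous light.

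VDE2, 1 of 2 genes for violaxanthin de-epoxidase, the enzyme that makes zeaxanthin in strong light, had the largest increase relative to its error. It measured 1.04, 1.10 and 1.15 in sample 2, against 0.430, 0.477 and 0.470 in continuous light. All repeats of sample 2 were more than 2-fold above all of continuous light. The fold was 2.39, a log2 change of 1.26 ± 0.11 or 11.5 propagated SDs, more than for any other gene of the table. The other 2 of the 3 xanthophyll cycle genes did not pass, where 13.9% of all targets passed. The median of the list was 0.30, beside 0.20 for all targets. VDE1, the second de-epoxidase gene, measured 1.00, 0.973 and 0.866 in sample 2, against 0.716, 0.976 and 0.648 in continuous light, where repeat 2 reached the level of sample 2. Its log2 change was 0.30 ± 0.33. ZE, which the tables call a zeaxanthin de-epoxidase, was at 0.28 ± 0.17, and its repeats did not overlap, with 0.907 to 0.984 in sample 2 and 0.718 to 0.886 in continuous light.

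The repeats of all 3 genes of pigment synthesis lay entirely above continuous light, as did those of 41.7% of all targets. Their median log2 change was 0.62, beside 0.20 for all targets. With UFP as the reference these medians were 0.0222 and −0.40. Only POR1 passed the rule, at its very edge, beside 13.9% of all targets. POR1 encodes the light-dependent protochlorophyllide oxidoreductase, the enzyme that needs light to complete the chlorophyll ring. It measured 1.12, 1.06 and 0.967 in sample 2, against 0.476, 0.588 and 0.510 in continuous light. The fold was 2.00 and the log2 change 1.00 ± 0.19, which made it the last gene inside the threshold of 2-fold. Leaving out repeat 1 of both samples put it at 0.89, and leaving out repeat 3 of continuous light at 0.98, both short of 2-fold. ALAD, which joins 5-aminolevulinic acid units at the start of tetrapyrrole synthesis, measured 1.12, 1.02 and 1.05 in sample 2 and 0.655, 0.755 and 0.664 in continuous light. Its change of 0.62 ± 0.13 was 4.69 propagated SDs but only 1.54-fold. LCYB, the lycopene cyclase that leads to beta-carotene and on to the xanthophylls, was at 0.23 ± 0.15.

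**Figure D3:**
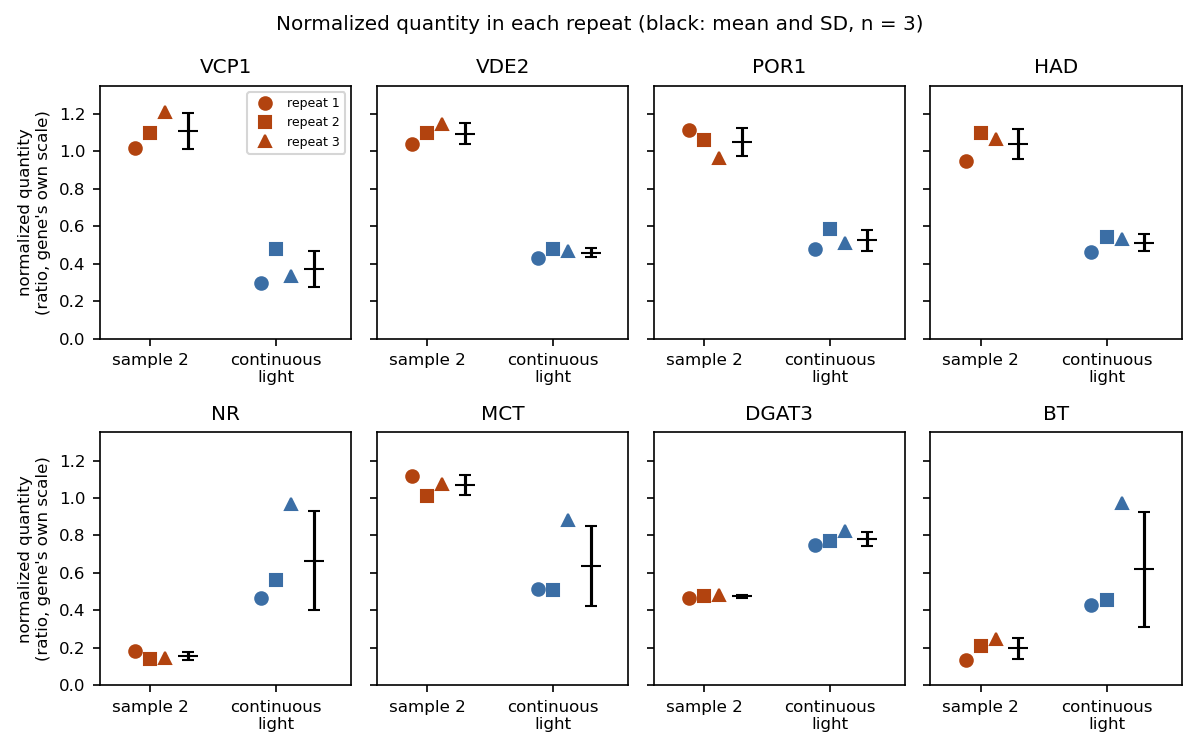
Normalized quantity in each repeat of sample 2 (left) and continuous light (right) for 8 genes, with black marks for the mean and SD (n = 3). VCP1, VDE2, POR1 and HAD lie high in sample 2 with no overlap, NR, DGAT3 and BT lie low, and repeat 3 of continuous light stands above the other two for NR, MCT and BT.

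In fatty acid synthesis 1 of 8 genes changed, beside 13.9% of all targets. The median log2 change was 0.44 beside 0.20 for all targets, but without repeat 2 of both samples the list and all targets had the same median of 0.21. HAD, the 3-hydroxyacyl-ACP dehydratase that removes water in each elongation round, measured 0.948, 1.10 and 1.07 in sample 2, against 0.462, 0.544 and 0.532 in continuous light. The samples did not overlap, and the fold of 2.03 gave a log2 change of 1.02 ± 0.17. MCT, the malonyl-CoA:ACP transacylase that loads the carbon donor onto ACP, did not overlap between the samples. It measured 1.12, 1.01 and 1.08 in sample 2, against 0.514, 0.510 and 0.884 in continuous light. With all repeats the change was 0.80 ± 0.46 and MCT did not pass. Without repeat 3 of continuous light it was 1.06 ± 0.07, or 2.09-fold, and MCT passed. MCT was recomputed, since its row in the normalized table holds the normalization factor in place of a measurement.

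The 2 reductions of the cycle were measured with 2 genes each. Of the 3-oxoacyl-ACP reductases, KAR1 measured 0.898, 0.910 and 0.981 in sample 2 and 0.644, 0.456 and 0.975 in continuous light, so that only repeat 3 of the control reached sample 2. Its change was 0.50 ± 0.55, and 0.78 ± 0.36 without that repeat. KAR2 was level at 0.01 ± 0.30, with 0.697, 0.700 and 0.709 in sample 2 against 0.672, 0.869 and 0.577 in continuous light. The enoyl-ACP reductases, which close the cycle, were at 0.48 ± 0.27 for ENR2 and 0.39 ± 0.46 for ENR1, and the repeats of ENR2 did not overlap. KAS, a ketoacyl-CoA synthase by its listed name, was at −0.15 ± 0.48, and at 0.07 ± 0.29 without that repeat, so its sign rests on it. BC, listed as the ligase that attaches biotin to acetyl-CoA carboxylase, ran the other way from HAD, with 0.311, 0.404 and 0.416 in sample 2 against 0.428, 0.503 and 0.590 in continuous light. The repeats of BC did not overlap but nearly met, and the log2 change was −0.43 ± 0.33.

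Neither desaturase and neither acyl-CoA synthetase changed, beside 13.9% of all targets. O6FADes1, an omega-6 fatty acid desaturase, was at 0.17 ± 0.50 with overlapping repeats. Without repeat 3 of continuous light it was at 0.43 ± 0.24 with no overlap, still under 2-fold. D6S, named a delta 6 gene in the tables, was at −0.32 ± 0.33. LCS1 and LCS2, long-chain acyl-CoA synthetases, were at 0.16 ± 0.77 and 0.43 ± 0.29. LCS1 had the widest repeats among the targets in both samples, with 0.450, 0.611 and 0.662 in sample 2 and 0.431, 0.344 and 0.885 in continuous light. Without that last value LCS1 was at 0.56 ± 0.37 with no overlap, also under 2-fold.

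The 3 genes for glycerol-3-phosphate dehydrogenase, which can supply the glycerol backbone, had a median log2 change of 0.02. None passed, beside 13.9% of all targets. GPD1 measured 1.12, 0.914 and 0.943 in sample 2, against 0.526, 0.635 and 0.490 in continuous light. The samples did not overlap, and at 1.80-fold, a log2 change of 0.85 ± 0.25, GPD1 was the first gene outside the threshold of 2-fold among those beyond 2 propagated SDs. GPD3 was level at 0.02 ± 0.13. GPD2 was at −0.39 ± 0.39, with 0.641, 0.498 and 0.488 in sample 2 and 0.682, 0.579 and 0.896 in continuous light.

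None of the 10 genes of glycerolipid assembly changed by the rule, beside 13.9% of all targets. Their median was 0.07, beside 0.20 for all targets, with some members higher and some lower. The repeats of 4 of the 10 lay entirely above continuous light and those of 3 entirely below it, beside 41.7% and 16.7% of all targets. The early acylations were on the upper side. GPAT, which adds the first acyl chain, was at 0.43 ± 0.21, and LPAT1, which adds the second, at 0.40 ± 0.20, both just beyond 2 propagated SDs, while LPAT2 was at 0.15 ± 0.22. PAP2, a phosphatase that releases diacylglycerol, measured 1.06, 1.10 and 0.885 in sample 2, against 0.560, 0.679 and 0.532 in continuous light, a fold of 1.72 and a log2 change of 0.78 ± 0.25. PAP3, another such gene, was on the lower side at −0.20 ± 0.09.

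The 5 genes for diacylglycerol acyltransferase, which adds the last acyl chain to make triacylglycerol, spread from −0.72 to 0.56. DGAT3 had the smallest error of all genes, 0.08, and lay 9.31 propagated SDs below continuous light. It measured 0.464, 0.478 and 0.482 in sample 2, against 0.749, 0.768 and 0.825 in continuous light. The gap is 0.608-fold, which is under the 2-fold size needed to count. DGAT2 measured 1.09, 1.07 and 1.03 in sample 2, against 0.665, 0.802 and 0.701 in continuous light, a log2 change of 0.56 ± 0.14. DGAT1 was lower with no overlap at −0.38 ± 0.22, while DGAT4 at −0.01 ± 0.12 and DGAT5 at −0.14 ± 0.27 overlapped.

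The ratio of 2 genes for the same enzyme does not depend on the normalization factor, which cancels within a repeat. Of the 22 ratios within the 9 families with more than 1 gene, 2 shifted by at least 2-fold and more than 2 propagated SDs. The log2 ratio of DGAT2 to DGAT3 was 1.23, 1.16 and 1.10 in sample 2, against −0.17, 0.06 and −0.23 in continuous light, a shift of 1.28 ± 0.17. The log2 ratio of GPD1 to GPD2 was 0.80, 0.88 and 0.95 in sample 2, against −0.37, 0.13 and −0.87 in continuous light, a shift of 1.25 ± 0.51. In both, every repeat of sample 2 lay above every repeat of continuous light, and without repeat 3 the second shift was 0.96, under 2-fold. PAP2 over PAP3 followed at 0.98 ± 0.23, VDE2 over VDE1 at 0.96 ± 0.34 and AGPase2 over AGPase1 at 0.70 ± 0.32, all without overlap. The families of LPAT, ENR, KAR and LCS overlapped, with shifts of 0.25 ± 0.29, 0.10 ± 0.22, 0.48 ± 0.85 and 0.28 ± 0.63. The widest ratio of each family is shown here, a choice made after the values were seen.

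**Figure D4:**
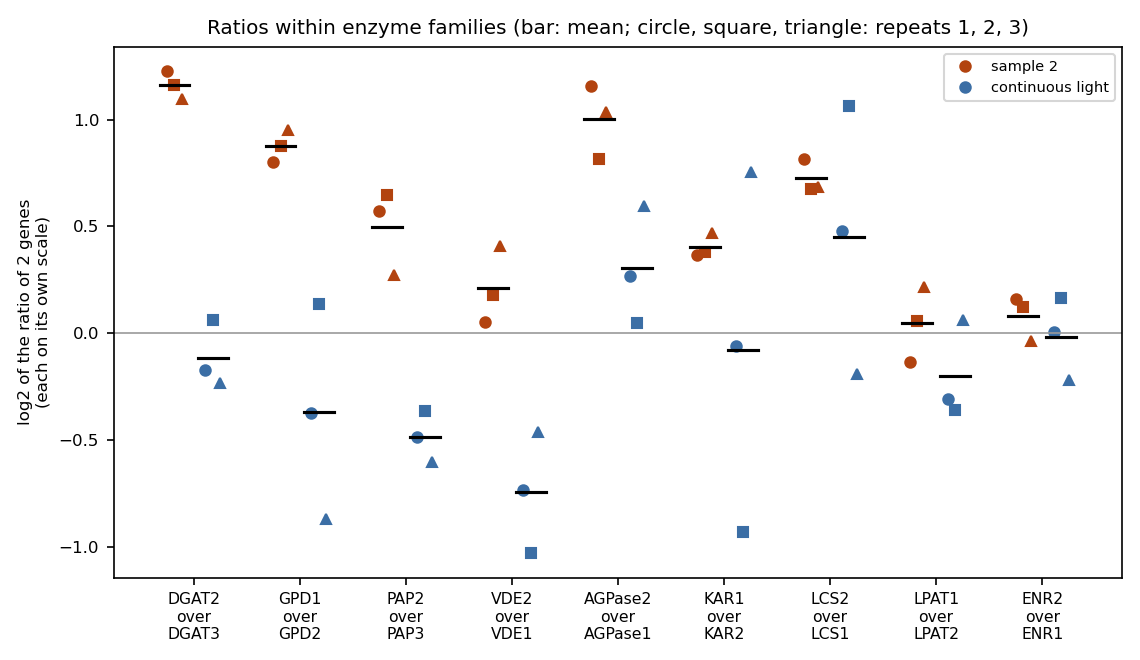
Log2 ratio of a pair of genes for the same enzyme in each repeat, for the pair with the largest shift in each of 9 families, with sample 2 to the left of continuous light. Bars are means. The 5 leftmost ratios show no overlap between the samples, and the 4 rightmost do.

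ADP-glucose pyrophosphorylase, which in plants and green algae makes the sugar donor of starch, was measured with 2 genes. AGPase1 measured 0.365, 0.425 and 0.352 in sample 2, against 0.611, 0.562 and 0.599 in continuous light. The samples lay apart, and the log2 change of −0.64 ± 0.16 was 4.04 propagated SDs but under 2-fold. AGPase2 overlapped at 0.06 ± 0.33.

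NR, the nitrate reductase that turns nitrate into nitrite, was the only lower target that passed the rule and had the largest change of all. It measured 0.183, 0.142 and 0.145 in sample 2, against 0.466, 0.563 and 0.968 in continuous light. The lowest control value was still more than 2-fold the highest value of sample 2. The means were 0.156 ± 0.0227 in sample 2 and 0.666 ± 0.266 in continuous light (SD, n = 3 each), so that continuous light was 4.07-fold above sample 2 and the log2 change was −2.03 ± 0.58. Repeat 3 of continuous light widens this gap, and without it NR stood at −1.72 ± 0.28 and still passed. In uncorrected cycles, the NR product of sample 2 appeared 2.57, 2.91 and 3.03 cycles after the gene's earliest reaction, and that of continuous light 1.20, 0.78 and 0.01 cycles after it. NAR1, the nitrite transporter that carries the product of NR into the plastid, was level at 0.05 ± 0.12, with 0.722, 0.810 and 0.795 in sample 2 and 0.707, 0.793 and 0.743 in continuous light.

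Among the housekeeping genes, beta tubulin (BT) came nearest to the rule. It measured 0.131, 0.210 and 0.245 in sample 2, against 0.428, 0.457 and 0.975 in continuous light, without overlap. The log2 change of −1.61 ± 0.81 was 1.99 propagated SDs, just short of 2, and became −1.23 ± 0.47, which passes, without repeat 3 of continuous light. The ubiquitin family gene UFP was higher in sample 2 without overlap at 0.60 ± 0.32, and GAPDH, of glycolysis, lower without overlap at −0.44 ± 0.23. Actin (ACT) was at 0.02 ± 0.23, elongation factor TEF1 at −0.30 ± 0.45 and alpha tubulin AT1 at −0.32 ± 0.46. The repeats of TEF1 and AT1 overlapped between the samples, and without repeat 3 of continuous light they were at −0.04 ± 0.14 and −0.07 ± 0.17. CYP and PAP1, whose changes are equal and opposite by construction, were at −0.02 ± 0.10 and 0.02 ± 0.10.

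The choice among these housekeeping genes shifts every target by the same amount. With UFP as the reference each target lay 0.60 lower, and with GAPDH 0.44 and with BT 1.61 higher, than with CYP and PAP1. VCP1 passed under all 20 alternative calculations, NR under 19, VDE2 under 18, HAD under 15 and POR1 under 11. These calculations reuse the same repeats and are not independent. The authors' fold values and the pairing by repeat number gave identical results for these genes. The lowest values of the 4 higher targets were all obtained with UFP, which left VCP1 at 1.01, VDE2 at 0.66, HAD at 0.42 and POR1 at 0.40. The order of the genes does not depend on the reference. A base of 2 per PCR cycle for every gene, in place of each gene's own base of 1.91 to 2.17, left HAD at 0.99 and POR1 at 0.985, just under the threshold.

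**Figure D5:**
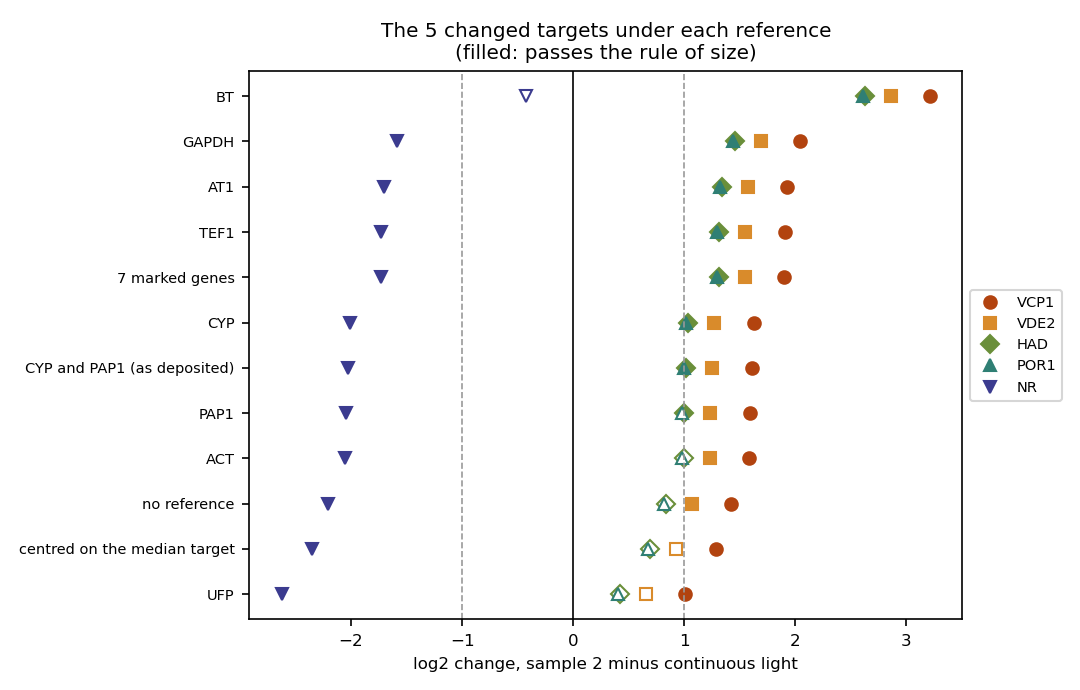
Log2 change of the 5 changed targets, sample 2 minus continuous light, under each reference gene or centring, 1 row each. Filled symbols pass the rule of size. Moving from UFP to BT shifts all 5 genes to the right by the same amount, VCP1 is filled in every row, and NR is open only with BT.

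The other flashing light samples share the control with sample 2, so their values are given side by side without a count of agreement. Relative to continuous light, VCP1 stood at 3.05-fold in sample 2, 0.954-fold in sample 3 and 0.787-fold in sample 4. VDE2 stood at 2.39-fold in sample 2, 1.04-fold in sample 3 and 0.956-fold in sample 4. HAD stood at 2.03-fold in sample 2, 1.00-fold in sample 3 and 0.997-fold in sample 4. POR1 stood at 2.00-fold in sample 2, 1.11-fold in sample 3 and 0.708-fold in sample 4. NR was below continuous light in each of them, at 0.245-fold in sample 2, 0.451-fold in sample 3 and 0.688-fold in sample 4. Over the 4 samples, sample 2 had the highest mean normalized quantity for 23 of the 36 targets and the lowest for 8. The normalization factor bears on that order, as it was 0.814 to 0.908 in sample 2, 0.965 to 1.22 in sample 3, 0.757 to 1.49 in sample 4 and 0.921 to 1.03 in continuous light. Its division moves every log2 change of sample 2 against continuous light up by 0.18. Before normalization, 20 of the 36 targets had the highest of their 12 values in sample 4 and 8 in sample 2. All 20 fell in repeat 2 of sample 4, the repeat with the factor of 1.49. After normalization the highest single value lay in sample 2 for 17 targets and in sample 4 for 3.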

How the data were processed

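SYBR Green real-time PCR was run on total RNA, per the labels. The authors deposited 3 tables of linear ratios: before normalization, after division by housekeeping genes, and as fold, test over control, per the file headers. For the instrument, the software and the detection limit: not given in the sources used here. Absolute threshold cycles are not used here, only cycle differences. Recomputation showed the divisor to be the geometric mean of CYP and PAP1 for each sample and repeat, within 0.1% for 43 of 44 genes. The MCT row equalled the divisor within 5.04e-06, and MCT was recomputed. In the authors' deposited fold table, 131 of 132 values equalled sample 2 over sample 1; the exception, PAP1 in repeat 1, holds the CYP value. Rows were matched by position, as a few row labels differ between the tables. Cycle differences were recovered from the ratios, which are whole multiples of 0.01 cycle (within 0.01 of a step) at 1 base per gene.

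Means and SDs were taken over 3 repeats on the log2 scale with numpy 2.4.6 and pandas 2.3.3. No p-value is given, since each condition had 1 sample. All 44 genes could be named: those passing in full, those beyond 2 propagated SDs and each list's extremes with their change. Genes, lists and the rule were chosen with earlier results of these data known. Alternatives were the reference, the summary over repeats, the thresholds, each repeat left out, pairing by repeat number and, chosen after seeing the data, base 2 and leaving out repeat 3 of continuous light. Sequences are not used here.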

Additional observations from a re-analysis of the deposited data

Results flagged for a closer look

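For 5 targets, the 3 repeats of sample 2 lay wholly on one side of the 3 repeats of continuous light and those of sample 4 wholly on the other, out of 72 checks against samples 3 and 4. The difference between the samples was not tested, and both share the control repeats. POR1 of chlorophyll synthesis was at 1.00 ± 0.19 in sample 2 and −0.50 ± 0.23 in sample 4, a difference of 1.4995 on the log2 scale. PAP2, which releases diacylglycerol, was at 0.78 ± 0.25 in sample 2 and −0.31 ± 0.23 in sample 4, a difference of 1.10. LPAT1 of the second acylation was at 0.40 ± 0.20 in sample 2 and −0.15 ± 0.08 in sample 4, a difference of 0.54. ZE of the xanthophyll cycle was at 0.28 ± 0.17 in sample 2 and −0.21 ± 0.18 in sample 4, a difference of 0.49. AGPase1 of ADP-glucose synthesis ran the other way, at −0.64 ± 0.16 in sample 2 and 0.18 ± 0.09 in sample 4, a difference of −0.81.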

How the results depend on the processing

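Each condition was 1 sample and no RNA input or absolute threshold cycle was used, so the SD covers only the spread of the repeats. None of the 5 targets called with the authors' factor reversed direction in any alternative. The 5 calls, 4 higher and 1 lower, became 3 (2 and 1) with actin, without any reference and, chosen after seeing the data, with a base of 2. They became 3 (1 and 2) when each repeat was centred on the median target, 4 (1 and 3) with UFP, 9 (8 and 1) with GAPDH, 8 (7 and 1) with the 7 marked housekeeping genes and 27 (27 and 0) with BT. A threshold of 1.5-fold gave 10 and of 3-fold gave 2. Leaving out 1 repeat gave 4 to 6 calls, 3 to 5 of them higher. Without repeat 2 GPD1 passed, without repeat 3 MCT passed, and without repeat 1 POR1 did not. Without the third control repeat alone, chosen after seeing the data, MCT passed and POR1 did not. As deposited, the MCT row gives −0.18.

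List medians moved with the reference by construction. With UFP they were −0.30 (xanthophyll cycle), 0.0222 (chlorophyll and carotenoid synthesis), −0.16 (fatty acid synthesis), −0.58 (glycerol-3-phosphate supply), −0.53 (glycerolipid assembly) and −0.40 (all targets). With BT, in that order, they were 1.91, 2.23, 2.04, 1.62, 1.68 and 1.80, and with GAPDH 0.74, 1.06, 0.87, 0.45, 0.51 and 0.635. In the same order, they were 0.60, 0.92, 0.73, 0.31, 0.37 and 0.49 with TEF1. With AT1 they were 0.62, 0.94, 0.75, 0.33, 0.39 and 0.52, and with the 7 marked genes 0.59, 0.91, 0.73, 0.31, 0.365 and 0.49. Centring gave −0.0258, 0.30, 0.11, −0.31, −0.25 and −0.13. Without a reference the first 2 lists were at 0.12 and 0.44 and all targets at 0.0138.

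The replicate block by repeat number gave the same counts, 4 higher and 1 lower. Same-numbered repeats correlated over 36 targets at 0.22, −0.04 and 0.31, so the numbers were not taken to pair them.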
